A study of Mus musculus with 49 samples.

Results

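The 4 opioid receptor genes of the mouse are Oprm1, Oprd1 and Oprk1, which encode the mu, delta and kappa opioid receptors, and Oprl1, which encodes the nociceptin receptor. They were taken by name from a count table of 52636 genes, with no threshold on a measured value, and followed in 47 libraries across 3 isolation methods and both cell types. Opioid receptors are G protein-coupled receptors that act through Gi and Go proteins: they lower cyclic AMP, open inwardly rectifying potassium channels and close presynaptic calcium channels. Enkephalins, cut from the Penk product, act mainly at delta and mu receptors, dynorphins from Pdyn act at kappa receptors, and nociceptin from Pnoc acts at the receptor encoded by Oprl1. The nucleus accumbens (NAc), a part of the ventral striatum concerned with reward, is made up mostly of medium spiny neurons (MSNs). D1-MSNs carry the dopamine receptor Drd1 and make dynorphin, while D2-MSNs carry Drd2 and make enkephalin, so that both the peptides and their receptors are of interest in this pair of neighbouring cell types.

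The study asked how D1- and D2-MSNs differ and how far the answer depends on the isolation method. All mice were C57BL/6J, their age was not given in the sources used here, and no treatment was named. In nuclear-FACS, nuclei were sorted from frozen NAc of mice heterozygous for the Thy1-loxPSTOPloxP-EGFP-F allele that also carried Drd1-cre (6 D1 libraries) or Drd2-cre (5 D2 libraries). In whole cell-FACS, cells carrying a cytoplasmic fluorophore driven from the Drd1 promoter (8 D1 libraries) or the Drd2 promoter (6 D2 libraries) were sorted from fresh tissue after papain digestion. In RiboTag, HA-tagged ribosomes were pulled down from fresh tissue of mice that carried the Rpl22-loxPexon4loxP-exon4-HA allele with Drd1-cre or Drd2-cre, with 6 D1 and 6 D2 libraries labelled male and 5 D1 and 5 D2 libraries labelled female. The nuclear and whole cell libraries were all labelled male, and the labels state that each sample came from its own mouse. The label in each cell followed the Drd1 or Drd2 promoter, so any other cell that uses that promoter, such as the cholinergic interneuron, which also carries Drd2, could be labelled too.

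Total counts per library ranged from 10476223 to 27965357 in whole cell, from 3701255 to 68777008 in nuclear and from 24076888 to 45641342 in RiboTag libraries. In RiboTag libraries the 10 highest genes held 84.9 to 88.3% of all counts, against 2.70 to 54.5% in whole cell and 5.23 to 66.9% in nuclear libraries, so levels, given as CPM (counts scaled to a common library size), are compared here only within a method. The labelled cell types were checked by 5 markers each. In the whole cell comparison and in both RiboTag comparisons all 5 D1-MSN markers were lower and all 5 D2-MSN markers higher in D2 libraries. In nuclear libraries Drd1 was lower (log2 fold change -1.75, adjusted p = 0.00923, edgeR) and Drd2 higher (1.74, adjusted p = 0.00221) in D2, but Penk, a defining D2-MSN gene, was lower there (-2.41, adjusted p = 0.00923), and the summed level of the D2-MSN markers overlapped (488 to 1254 CPM in D1 and 789 to 1409 CPM in D2). Of the 12 RiboTag libraries labelled male, 6 (4 D1 and 2 D2) held more counts of Xist than of 4 Y-linked genes together, against their label. The main D2 over D1 log2 fold changes and ratios of the libraries labelled male are therefore given with and without these 6, which leaves 2 D1 and 4 D2 libraries. Levels, likeness, the marker check, marker sums and shares of all genes called are given for all 12 only. Column headers of the study's supplementary data give whole cell D1 and D2 libraries different lane names, so lane and cell type cannot be told apart in that method. In bulk samples, fewer cells that use a gene and less RNA per cell cannot be told apart either.

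The receptor genes differ widely in structure, which matters because fragments were counted over the whole gene body. In the annotation of GRCm38, Oprm1 (ENSMUSG00000000766) lies on the plus strand at chr10:6758506-7038198 and spans 279.693 kb, with 8.037 kb of exons. Oprd1 (ENSMUSG00000050511) lies on the minus strand at chr4:132110726-132144486 and spans 33.761 kb. Oprk1 (ENSMUSG00000025905) lies on the plus strand at chr1:5588466-5606131 and spans 17.666 kb. Oprl1 (ENSMUSG00000027584) lies on the plus strand at chr2:181715016-181720985 and spans 5.97 kb. Ipcef1, on the opposite strand, covers 54.49% of Oprm1, and since the counting ignored strand and counted a shared fragment for each gene, Oprm1 fragments from that stretch cannot be told from those of Ipcef1. The small predicted gene Gm10945 covers a further 1.16% of Oprm1, and no annotated gene overlaps the other 3 receptors.

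Oprd1 and Oprl1 differed between the cell types in opposite directions in whole cell libraries (below), and the 250 bases upstream of their starts are shown here because they are also unlike in composition. Both are from the RefSeq promoter table for GRCm38.p6, 5′ to 3′ on the strand of the gene, with Oprd1 at chr4:132144487-132144736 and Oprl1 at chr2:181714766-181715015, the first of 3 starts listed for it. Capitals mark matches to GGGCGG (a GC box) or CACGTG (an E-box) on either strand, searched together with TGACGTCA (a cyclic AMP response element).
Oprd1: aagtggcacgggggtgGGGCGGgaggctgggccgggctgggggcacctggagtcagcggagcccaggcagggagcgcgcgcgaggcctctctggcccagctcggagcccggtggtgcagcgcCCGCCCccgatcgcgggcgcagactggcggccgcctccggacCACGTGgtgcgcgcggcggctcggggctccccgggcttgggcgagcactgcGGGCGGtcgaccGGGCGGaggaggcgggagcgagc
Oprl1: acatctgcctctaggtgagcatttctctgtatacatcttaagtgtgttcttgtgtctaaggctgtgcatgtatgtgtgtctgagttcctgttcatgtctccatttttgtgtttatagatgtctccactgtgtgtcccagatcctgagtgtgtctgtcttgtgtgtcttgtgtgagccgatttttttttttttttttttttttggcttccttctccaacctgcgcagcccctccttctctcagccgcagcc
The Oprd1 window was 80% G or C with 34 CpG dinucleotides, 4 GC boxes and 1 E-box, which did not overlap each other. The Oprl1 window was 44.4% G or C with 3 CpG dinucleotides and held none of the 3 motifs. Over all 32536 windows of this length, the median was 52.4% G or C and 6 CpG dinucleotides, 33.0% held a GC box, 6.04% an E-box and 1.56% the cyclic AMP response element. These matches describe the letters in the windows only.

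Oprd1, the delta receptor gene, was higher in D2- than in D1-MSNs by whole cell-FACS and by RiboTag. In RiboTag libraries labelled female, Oprd1 stood at 1.15, 1.36, 1.02, 1.54 and 1.24 CPM in the 5 D1 libraries and at 4.92, 4.05, 4.35, 4.45 and 4.69 CPM in the 5 D2 libraries. Every D2 library was above every D1 library, and the log2 fold change of D2 over D1 was 1.83 ± 0.11 (SE), or 3.57-fold, with an adjusted p of 5.14e-10 in edgeR's quasi-likelihood test. In RiboTag libraries labelled male it ranged from 0.748 to 1.91 CPM (median 1.27, n = 6) in D1 and from 3.01 to 4.63 CPM (median 4.12, n = 6) in D2. The groups again did not overlap, and the log2 fold change was 1.67 ± 0.15 (3.18-fold, adjusted p = 2.18e-08, edgeR). Without the 6 libraries at odds with their sex label it was 2.02 ± 0.23 (adjusted p = 1.29e-05, edgeR). The counts behind these RiboTag levels were low, 20 to 56 fragments in a D1 library and 88 to 198 in a D2 library.

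In whole cell libraries Oprd1 ranged from 11.1 to 59.7 CPM (median 28.6, n = 8) in D1 and from 55.9 to 91.2 CPM (median 71.9, n = 6) in D2. The groups overlapped through 1 library only, since 7 of 8 D1 libraries were below every D2 library, and D1 replicate 8 (59.7 CPM) was the exception. The log2 fold change was 1.39 ± 0.29 (2.63-fold, adjusted p = 0.0271, edgeR). Without D1 replicate 8 it was 1.65 (adjusted p = 0.0012), whereas the call was lost without D1 replicate 1 (1.40, adjusted p = 0.0549) and without D1 replicate 5 (1.41, adjusted p = 0.0528). In 3 D2 libraries (replicates 2, 5 and 6) the 10 highest genes held over 20% of the counts, and without them the log2 fold change was 1.49 ± 0.41 (8 D1 and 3 D2 libraries, adjusted p = 0.0993, edgeR).

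Nuclear libraries gave no stable value for Oprd1. Its FPKM on the gene span (its count over the span in kilobases and over a library size set by DESeq2 size factors) reached 0.638 at most, below the minimum of 1 that the study's filter sets for nuclear libraries, so it was fitted without that filter. In CPM scaled on the genes that pass the filter, it ranged from 28.4 to 54.3 (median 39.0, n = 6) in D1, and the 5 D2 libraries were at 64.5, 66.0, 66.2, 88.9 and 66.8 CPM. Every D2 library was above every D1 library on that scale, with a log2 fold change of 0.82 ± 0.22 (adjusted p = 0.0239, edgeR), while the median of all genes tested on that scale was 1.26 and 40.0% of them were called. Scaled instead on all 30791 genes fitted without the filter, the log2 fold change was -0.25 ± 0.17 (adjusted p = 0.231), since dropping the filter moved the values of the genes common to both fits by a median of -1.13. The direction for Oprd1 in nuclei thus depends on the scaling.

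**Figure D1:**
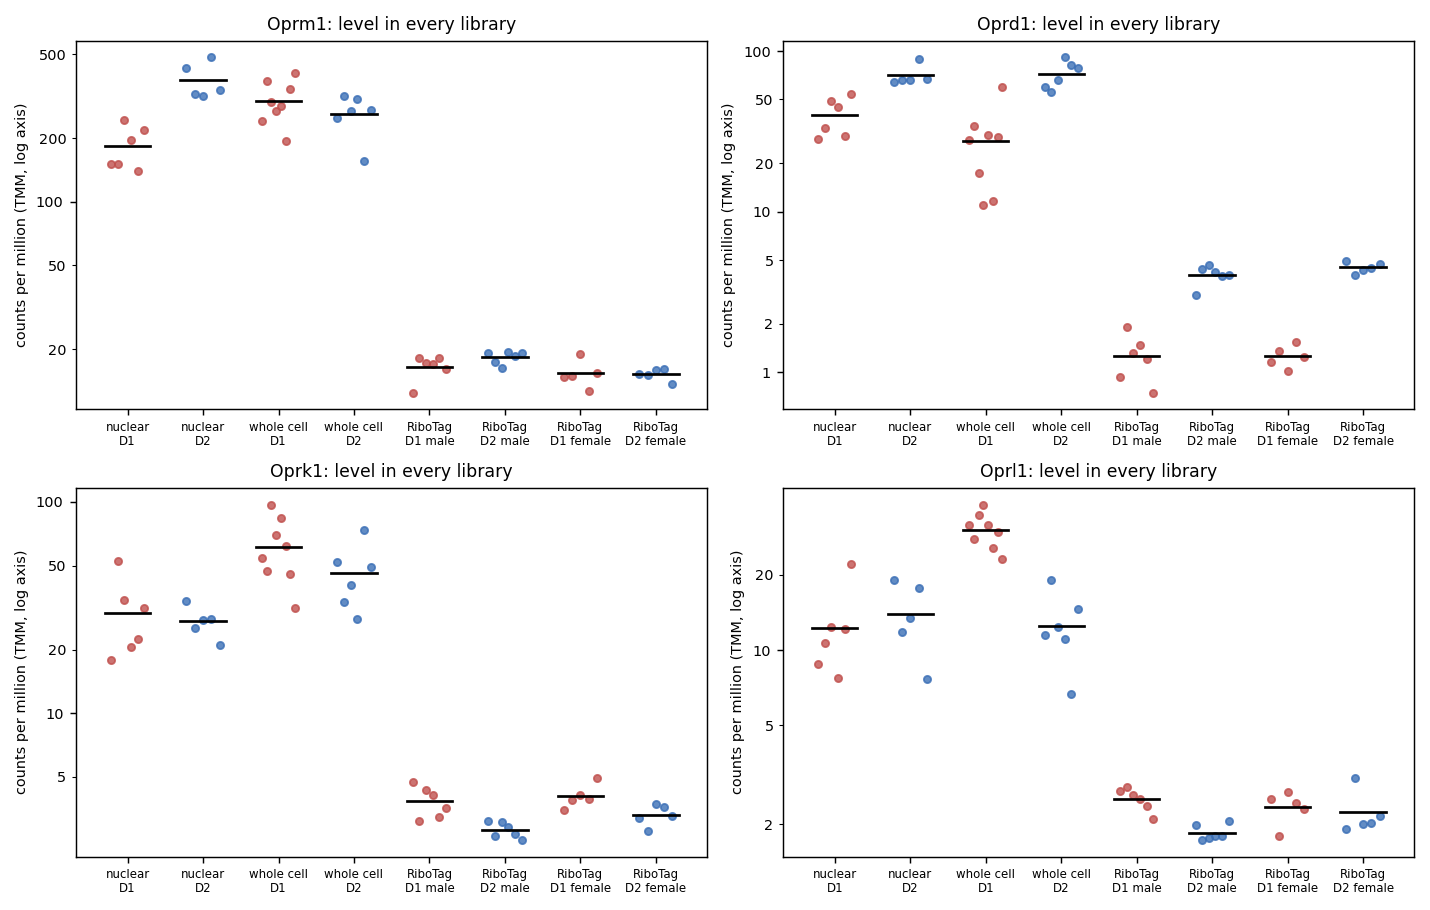
Level of each opioid receptor gene in every library, in TMM-scaled CPM on a log axis, by isolation method, cell type and labelled sex (red D1, blue D2, black line the group mean). For Oprd1 the D2 points lie above all D1 points in nuclear and both RiboTag sets and above 7 of 8 in the whole cell set, and for Oprl1 all 8 whole cell D1 points lie above the 6 D2 points. On the nuclear scale shown, the median log2 fold change of all genes was 1.26, against 0.82 for Oprd1, whose nuclear direction depends on the scaling.

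Oprl1, the nociceptin receptor gene, was higher in D1-MSNs in whole cell libraries. It ranged from 23.2 to 38.3 CPM (median 30.6, n = 8) in D1 and from 6.65 to 19.1 CPM (median 11.9, n = 6) in D2. The groups did not overlap, and the log2 fold change was -1.28 ± 0.23, or 2.43-fold higher in D1 (adjusted p = 0.00768, edgeR). Leaving out each library in turn kept it between -1.44 and -1.10 with an adjusted p of at most 0.0461, but without the FPKM filter, where 33421 genes were tested in place of 16352, it was -1.14 ± 0.27 with an adjusted p of 0.126.

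In RiboTag libraries the Oprl1 difference was smaller. In those labelled male, it ranged from 2.09 to 2.83 CPM (median 2.57, n = 6) in D1 and from 1.73 to 2.06 CPM (median 1.80, n = 6) in D2. No D2 library reached a D1 library, and the log2 fold change was -0.45 ± 0.11 (adjusted p = 0.00662, edgeR). Without the 6 libraries at odds with their sex label it was -0.29 ± 0.18 (adjusted p = 0.480), and the call was lost. In those labelled female, the D1 libraries stood at 2.53, 1.80, 2.69, 2.43 and 2.31 CPM and the D2 libraries at 1.91, 3.06, 2.00, 2.03 and 2.17 CPM. These groups overlapped, with the lowest value in D1 and the highest in D2, and the log2 fold change was -0.08 ± 0.14 (adjusted p = 0.852, edgeR). In nuclear libraries Oprl1 ranged from 7.71 to 22.1 CPM (median 11.4, n = 6) in D1, and the D2 libraries were at 19.0, 11.8, 13.4, 17.8 and 7.63 CPM, with a log2 fold change of 0.23 ± 0.31 (adjusted p = 0.636).

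Oprk1, the kappa receptor gene, was lower in D2 in the RiboTag libraries labelled male. It ranged from 3.11 to 4.73 CPM (median 3.84, n = 6) in D1 and from 2.52 to 3.11 CPM (median 2.80, n = 6) in D2. The highest D2 library lay just below the lowest D1 library, and the log2 fold change was -0.45 ± 0.11 (adjusted p = 0.00637, edgeR). Without the 6 libraries at odds with their sex label it was -0.20 ± 0.15 (adjusted p = 0.566), and the call was lost. In the libraries labelled female, D1 libraries stood at 3.50, 3.89, 4.09, 3.94 and 4.96 CPM and D2 libraries at 3.20, 2.77, 3.73, 3.61 and 3.27 CPM. Here 4 of 5 D1 libraries were above every D2 library, and the log2 fold change was -0.30 ± 0.10 (adjusted p = 0.133, edgeR).

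By whole cell-FACS Oprk1 ranged from 31.3 to 97.0 CPM (median 58.1, n = 8) in D1 and from 28.0 to 73.5 CPM (median 44.9, n = 6) in D2, with a log2 fold change of -0.41 ± 0.24 (adjusted p = 0.481). In nuclear libraries it ranged from 17.9 to 52.3 CPM (median 27.0, n = 6) in D1, and the D2 libraries were at 34.1, 25.4, 27.7, 27.9 and 21.0 CPM. The groups overlapped in both methods, and the nuclear log2 fold change was -0.12 ± 0.26 (adjusted p = 0.781). Without the FPKM filter the nuclear value was -1.25 ± 0.32 (adjusted p = 0.0139, edgeR), where the median over all genes was 0.26. This filter choice moved the values of all shared genes by a median of -1.13. Each refit with 1 library left out kept that call (adjusted p at most 0.0468, edgeR), while a replicate block lost it (-1.28, adjusted p = 0.0910). DESeq2 without the filter gave -0.94 ± 0.33 (adjusted p = 0.0159), with a median of 0.55 over all genes. Scaled on the genes past the filter, the value was -0.13 ± 0.30 (adjusted p = 0.724, edgeR).

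Oprm1, the mu receptor gene, showed no called difference between the cell types in whole cell or RiboTag libraries as counted. Its long span kept its FPKM below the filter in all 4 comparisons, so its log2 fold changes come from the fits without that filter. Its CPM are on the scale of the genes past the filter, where its whole cell log2 fold change was -0.20 ± 0.19 (adjusted p = 0.941, edgeR). In whole cell libraries it ranged from 194 to 409 CPM (median 291, n = 8) in D1 and from 156 to 317 CPM (median 270, n = 6) in D2, with a log2 fold change of 0.00 ± 0.17 (adjusted p = 1.00, edgeR). In RiboTag libraries labelled male it ranged from 12.5 to 18.2 CPM (median 17.2, n = 6) in D1 and from 16.3 to 19.4 CPM (median 18.9, n = 6) in D2, with a log2 fold change of 0.15 ± 0.08 (adjusted p = 0.277), and 0.08 ± 0.09 (adjusted p = 0.735, edgeR) without the 6 libraries at odds with their sex label. In those labelled female, the D1 libraries stood at 14.9, 15.0, 19.1, 12.7 and 15.5 CPM and the D2 libraries at 15.2, 15.2, 15.9, 16.1 and 13.7 CPM. The groups overlapped in these 3 comparisons, and the last log2 fold change was -0.00 ± 0.09 (adjusted p = 0.989, edgeR).

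The fragments shared with Ipcef1 bear on Oprm1. As a step added once the values were known, the Ipcef1 count of each library was taken from its Oprm1 count. The Ipcef1 count also holds Oprm1 fragments from the shared stretch and Ipcef1 fragments from outside Oprm1. The step thus also removes Oprm1 fragments and does not give a clean Oprm1 level. After it, the log2 fold change in RiboTag libraries labelled male was 0.35 ± 0.08 (adjusted p = 0.00335, edgeR) and passed the threshold. It was 0.04 ± 0.08 (adjusted p = 0.904) in those labelled female and 0.09 ± 0.21 (adjusted p = 1.00) in whole cell libraries. Without the 6 libraries at odds with their sex label the value after this subtraction in the male set was again 0.35, with an SE of 0.11 and an adjusted p of 0.0861 (edgeR), and the call was lost. Ipcef1 itself ranged from 4.04 to 7.20 CPM in D1 and from 4.85 to 5.84 CPM in D2 in the RiboTag libraries labelled male (log2 fold change -0.24, adjusted p = 0.224, edgeR). Its log2 fold change there was -0.41 (adjusted p = 0.0356, edgeR) without the 6 libraries at odds with their sex label. In nuclear libraries Oprm1 ranged from 140 to 243 CPM (median 175, n = 6) in D1, and the D2 libraries were at 433, 326, 318, 484 and 339 CPM. No D1 library reached a D2 library on this scale, with a log2 fold change of 1.05 ± 0.19 (adjusted p = 0.0204), but it was -0.05 ± 0.13 (adjusted p = 0.747) when scaled on all genes fitted, and -0.39 ± 0.19 (adjusted p = 0.114) with the Ipcef1 count taken off as well.

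Counted over the receptors that passed the filter, 2 of 3 were called in whole cell libraries (Oprd1 higher and Oprl1 lower in D2), 3 of 3 in RiboTag libraries labelled male, 1 of 3 in those labelled female and 0 of 2 in nuclear libraries. The nuclear receptors that passed, Oprk1 and Oprl1, did so only through D1 libraries. Nuclear Oprk1 reached an FPKM of 1 on the span in D1 replicate 2 only (1.64), against at most 0.470 in D2. Nuclear Oprl1 reached it in D1 replicates 5 and 6 only (1.18 and 1.47), against at most 0.777 in D2. In whole cell and RiboTag libraries Oprd1 passed that filter only through its D2 libraries. Its FPKM on the span was at most 0.629 in whole cell D1 and 0.0558 in RiboTag D1 libraries. Without the filter its log2 fold change was 1.69 (adjusted p = 0.00552) in whole cell, 1.67 (4.59e-08) in RiboTag male and 1.85 (1.32e-08, edgeR) in RiboTag female libraries. Scaled instead on the genes past the filter, the whole cell value was 1.39 (adjusted p = 0.121, edgeR). Of all genes tested, 1.14% were called in whole cell, 9.30% in RiboTag male, 4.52% in RiboTag female and 16.1% in nuclear libraries. By whole cell-FACS 59 of these genes were higher and 128 lower in D2, against 145 and 64 with DESeq2 size factors in the same test, and in nuclear libraries 526 were higher and 958 lower, against 11272 and 1046 without the FPKM filter but scaled on the genes past it. Without the FPKM filter the shares of all genes called were 0.105, 8.52, 3.57 and 26.2% in the same order. A receptor can be past the threshold in one method and not in another without differing between them, so the difference itself was tested in 1 model over all libraries.

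**Figure D2:**
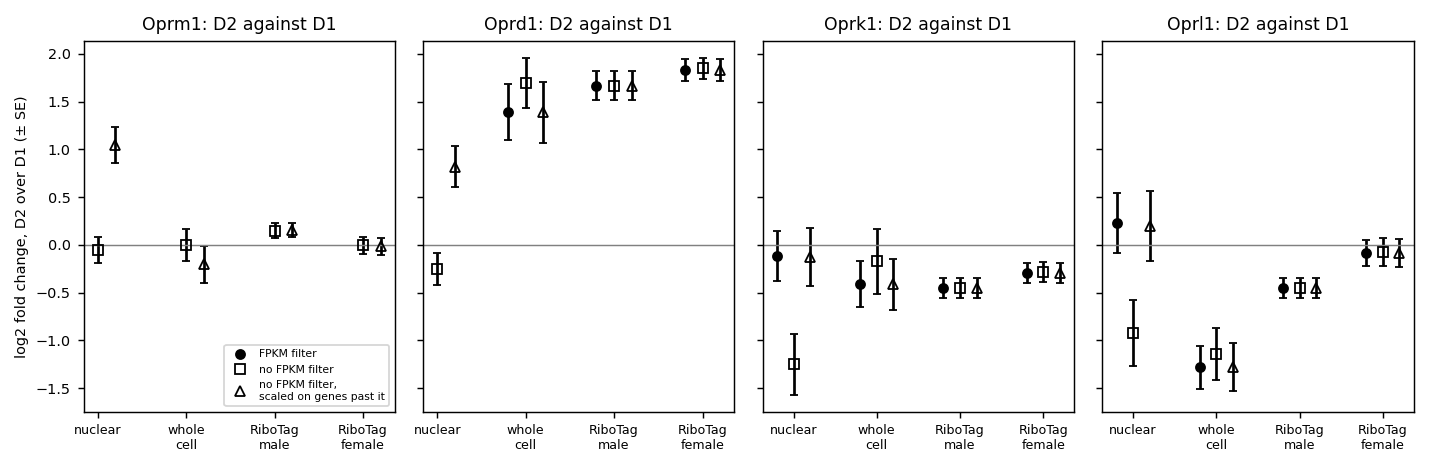
Log2 fold change of D2 over D1 with its standard error for each receptor gene in the 4 comparisons, from edgeR, where filled circles are fits on genes past the FPKM filter, open squares fits without that filter and open triangles fits without it but scaled on the genes past it. Oprd1 lies between 1.39 and 1.85 in whole cell and RiboTag fits, and in nuclear libraries the squares and triangles stand about 1 log2 unit apart for all 4 genes.

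Which receptors differed between methods depended on how the libraries were scaled. With TMM over all genes in 1 model, Oprd1 was the receptor past the threshold. Its D2 over D1 log2 fold change was larger in whole cell than in nuclear libraries by 1.89 ± 0.28 (adjusted p = 5.00e-06, edgeR) and larger in RiboTag libraries labelled male than in nuclear libraries by 1.87 ± 0.30 (adjusted p = 5.75e-05). RiboTag and whole cell values differed by -0.02 ± 0.28 (adjusted p = 1.00). Of all genes, 30.2, 20.7 and 0.219% were called in these 3 contrasts in the same order. With DESeq2 size factors the Oprd1 differences from nuclear libraries were 1.39 ± 0.32 (adjusted p = 0.00127) and 1.47 ± 0.34 (adjusted p = 0.00225), and Oprm1 then also passed for whole cell minus nuclear (-0.44, adjusted p = 0.0488, edgeR), as did Oprl1 in DESeq2's own test (-0.80, adjusted p = 0.0139). Scaled within each method on the genes past its FPKM filter, an alternative added once the values were known, the Oprd1 differences were 0.57 ± 0.35 (adjusted p = 0.149) and 0.85 ± 0.37 (adjusted p = 0.0941, edgeR), and neither passed. On that scale Oprm1 passed in both contrasts (-1.25 ± 0.22, adjusted p = 7.12e-05, and -0.89 ± 0.22, adjusted p = 0.00545) and Oprl1 for whole cell minus nuclear (-1.49 ± 0.30, adjusted p = 0.000407, edgeR), where the medians over all genes were -1.41 and -1.08, against -0.27 and 0.00 with TMM. For Oprl1, the RiboTag value was above the whole cell value by 0.74 ± 0.29 (adjusted p = 0.668, edgeR), which did not pass. Without the 6 libraries at odds with their sex label the Oprd1 differences were 1.88 (adjusted p = 2.29e-05) and 2.26 (adjusted p = 0.00608). Among the nuclear libraries Penk went against the label and the summed D2-MSN markers overlapped (above), and their part in the method difference was not tested.

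Between the RiboTag sets labelled female and male, no receptor passed the threshold, and the test was limited by the 6 libraries at odds with their label. Oprm1 was not tested here because it failed the FPKM filter. The female minus male log2 difference ranged from -0.11 to 0.08 over the other 3 genes in D1 and from 0.15 to 0.26 in D2, with adjusted p from 0.681 to 0.989 (edgeR). Of 7172 genes, 0% were called in D1 (0 by edgeR and 2 by DESeq2, with 561 at an unadjusted p under 0.05) and 0.0976% in D2. The D2 over D1 log2 fold change of Oprl1 was -0.08 in the female and -0.45 in the male set, a difference of 0.37 ± 0.17 (adjusted p = 0.675, edgeR), where 0% of genes were called (0 by edgeR and 3 by DESeq2, with 511 at an unadjusted p under 0.05), and without the 6 libraries this difference was 0.20 ± 0.23.

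Ratios between receptor genes within a library do not depend on how libraries are scaled. For each of 6 pairs of receptors in each of 4 comparisons, the log2 ratio of counts was compared between D1 and D2 by an exact two-sided permutation test, adjusted over the 24 tests, and 16 passed the threshold (3 in nuclear, 5 in whole cell, 5 in RiboTag male and 3 in RiboTag female libraries). The pairs share their genes, so 1 changed gene can be counted in several pairs. In RiboTag female libraries the 3 were the pairs that hold Oprd1. The share of other gene pairs that would pass was not computed. The log2 ratio of Oprd1 to Oprl1 averaged -0.32 ± 0.97 over the 8 D1 and 2.57 ± 0.70 (SD) over the 6 D2 libraries by whole cell-FACS, a difference of 2.89 (adjusted p = 0.00742, exact permutation). In RiboTag libraries it rose from -1.04 ± 0.38 to 1.11 ± 0.29 (SD, n = 6 each) in the male set (adjusted p = 0.00742, exact permutation) and from -0.89 ± 0.39 to 1.02 ± 0.36 (SD, n = 5 each) in the female set (adjusted p = 0.0148, exact permutation). In these RiboTag D1 libraries Oprl1 thus had more counts than Oprd1 in each library, and in D2 libraries fewer. In nuclear libraries the same difference was 0.66 (adjusted p = 0.0795, exact permutation). Leaving out the 6 libraries at odds with their sex label, the male differences were 2.29 for Oprd1 to Oprl1, 2.22 for Oprd1 to Oprk1, -1.91 for Oprm1 to Oprd1, 0.31 for Oprm1 to Oprk1 and 0.38 for Oprm1 to Oprl1. With 2 D1 and 4 D2 libraries an exact permutation test cannot go below p = 0.133, so these values have no call.

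Of the other pairs, Oprk1 to Oprl1 gave nearly the same mean in both RiboTag male groups, with a log2 ratio of 0.59 ± 0.26 in D1 and 0.60 ± 0.17 in D2 (SD, n = 6 each, difference 0.01, adjusted p = 0.959, exact permutation). Without the libraries at odds with their sex label the difference for this pair was 0.08. By whole cell-FACS that ratio was higher in D2 by 0.92 (adjusted p = 0.0240, exact permutation), and the call was lost without D2 replicate 1 (0.86, adjusted p = 0.0559) and without D2 replicate 5 (0.60, adjusted p = 0.0559). In nuclear libraries Oprm1 was higher relative to Oprk1 in D2 by 1.11 (adjusted p = 0.0124) and relative to Oprl1 by 0.87 (adjusted p = 0.0208), and Oprd1 relative to Oprk1 by 0.90 (adjusted p = 0.0148, exact permutation). Those 3 nuclear ratios set genes of long span against genes of short span, and the background counts described next differed between the nuclear groups. With that background subtracted, the difference for Oprm1 to Oprl1 was 0.54 (adjusted p = 0.241, exact permutation), and its call was lost. The difference for Oprd1 to Oprk1 was then 1.30, and this pair and Oprm1 to Oprk1 kept their calls.

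**Figure D3:**
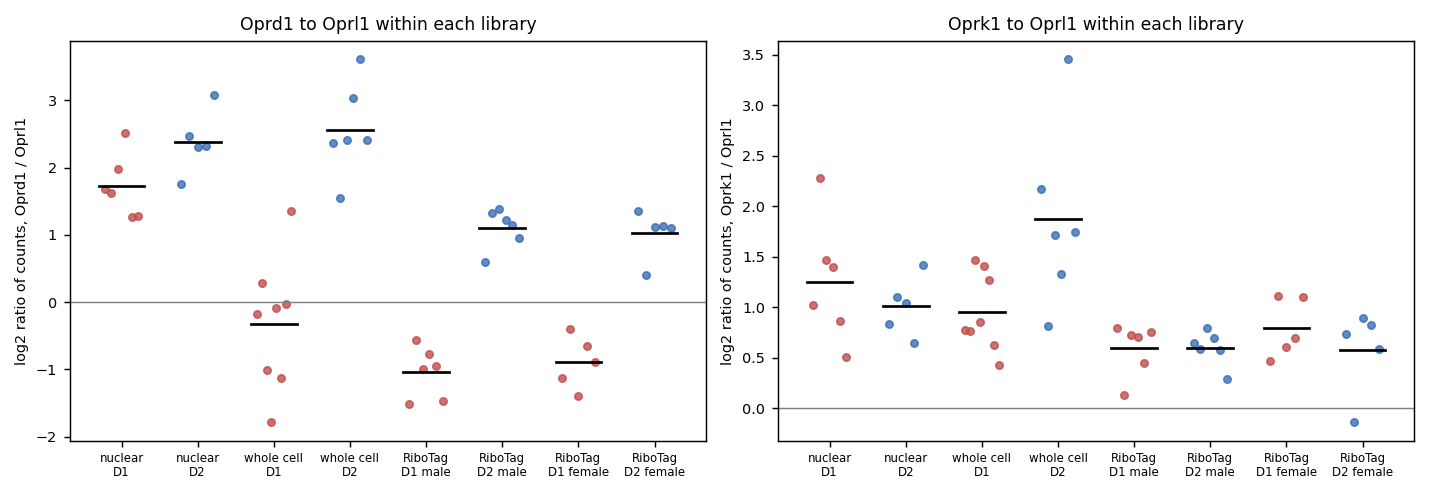
Log2 ratio of counts of Oprd1 to Oprl1 (left) and of Oprk1 to Oprl1 (right) within each library, by group (red D1, blue D2, black line the group mean). On the left all RiboTag D1 libraries lie below 0 and all RiboTag D2 libraries above it.

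A background of fragments spread over the genome reached the receptors to different degrees. It was estimated in each library from 1427 olfactory and vomeronasal receptor genes, which these neurons are not known to use, as counts per kilobase, and ranged from 0.905 to 6.64 in whole cell, from 0.0493 to 15.7 in nuclear and from 0.00485 to 0.0180 in RiboTag libraries. Multiplied by the span of the gene, it came to 50.6 to 62.4% of the Oprm1 count in nuclear D2, 3.84 to 46.7% in nuclear D1 and 11.3 to 54.3% in whole cell libraries. For Oprk1 it was 39.6 to 68.3% of the count in nuclear D2 and 0.892 to 21.0% in nuclear D1, which did not overlap. For Oprd1 it was 34.4 to 71.2% of the count in whole cell D1 and 4.82 to 23.4% in whole cell D2. It was at most 1.30% of any receptor count in a RiboTag library. With this background taken off, the whole cell Oprd1 log2 fold change was 2.11 ± 0.38 (adjusted p = 0.00948, edgeR) and that of Oprl1 -1.41 ± 0.27 (adjusted p = 0.0126), both on the same side as before.

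**Figure D4:**
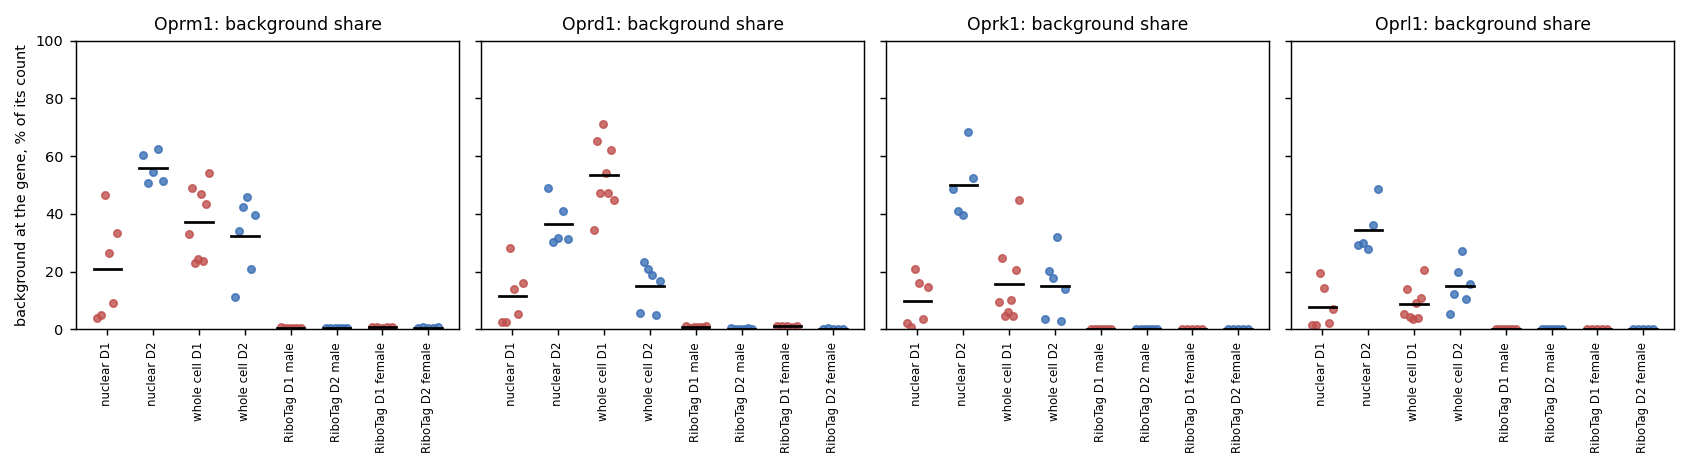
Estimated background at each receptor gene as a percentage of its count, per library and group (red D1, blue D2, black line the group mean). RiboTag libraries lie at or below 1.30%, while whole cell D1 libraries reach 71.2% for Oprd1 and nuclear D2 libraries 68.3% for Oprk1 and 62.4% for Oprm1.

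Levels of different genes were compared per length only, in FPKM, and the order depended on the length used. On the gene span, RiboTag D1 libraries had the order Oprl1, Oprk1, Oprm1, Oprd1 from high to low in both sets, and RiboTag D2 libraries had Oprl1, Oprk1, Oprd1, Oprm1. In the male set, mean FPKM on the span in D1 was 0.413 ± 0.040 for Oprl1, 0.212 ± 0.033 for Oprk1, 0.0578 ± 0.0081 for Oprm1 and 0.0367 ± 0.012 for Oprd1 (SD, n = 6), and each gene was above the next in all 6 libraries. In D2 they were 0.305 ± 0.022, 0.157 ± 0.013, 0.0644 ± 0.0042 and 0.118 ± 0.016 (SD, n = 6), with Oprd1 above Oprm1 in all 6. Whole cell D1 libraries had the same order as RiboTag D1, with Oprl1 above Oprk1 in 8 of 8 libraries (2.64 ± 0.81 and 1.84 ± 0.86 FPKM on the span, SD, n = 8). In whole cell D2 the 3 higher genes were not separated: Oprk1 (1.65 ± 0.97), Oprd1 (1.26 ± 0.37) and Oprl1 (1.21 ± 0.36 FPKM on the span, SD, n = 6) lay within their spread, with Oprd1 above Oprl1 in 2 of 6 libraries. In nuclear D1 libraries Oprl1, Oprk1 and Oprd1 followed with overlapping spreads (0.939 ± 0.36, 0.787 ± 0.43 and 0.524 ± 0.065 FPKM on the span, SD, n = 6), above Oprm1 at 0.292 ± 0.016. In nuclear D2 they were 0.602 ± 0.15 for Oprl1, 0.546 ± 0.046 for Oprd1, 0.404 ± 0.059 for Oprk1 and 0.353 ± 0.026 for Oprm1 (SD, n = 5). On the summed exons Oprm1 came out highest in all 8 groups, at 2.01 ± 0.28 FPKM in RiboTag D1 male libraries against 0.657 ± 0.064 for Oprl1 (SD, n = 6), because the same gene body count is then divided by a far shorter length.

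**Figure D5:**
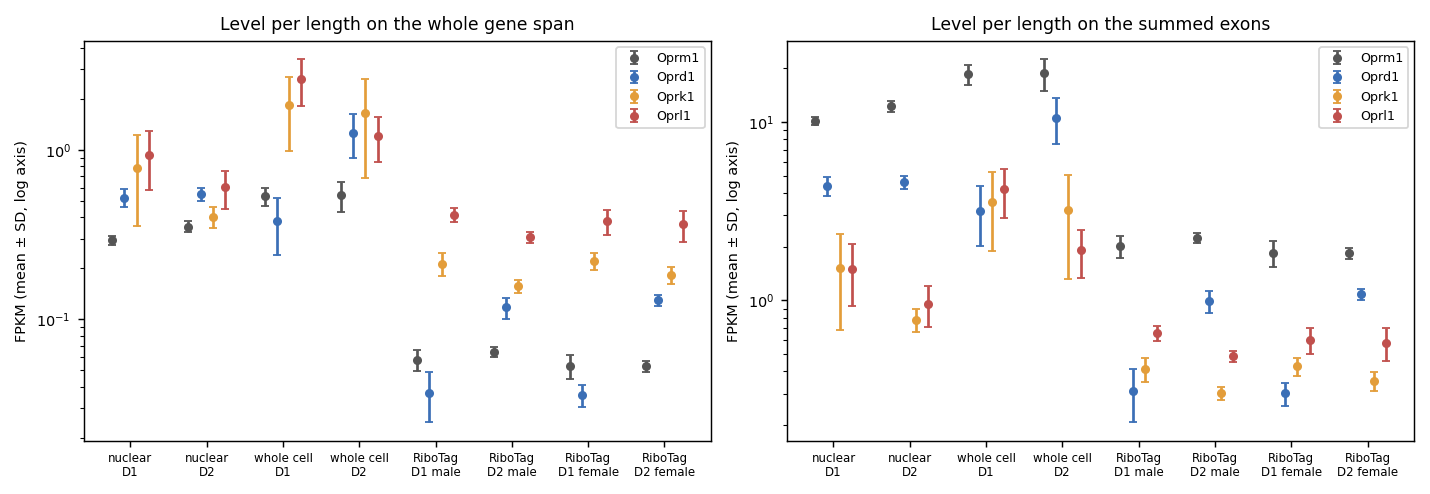
Mean FPKM with its SD for each receptor gene and group on a log axis, per length of the whole gene span (left) and of the summed exons (right). Oprm1 is among the 2 lowest genes in every group on the span and the highest in every group on the exons, and Oprd1 passes Oprm1 between RiboTag D1 and D2 libraries on the span only.

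Next to the receptors, 1 neighbour moved with its receptor. Gm37711, a transcript of the annotation class TEC (to be tested experimentally) on the same strand 1362 bases downstream of Oprd1 (chr4:132104830-132109363), was higher in D2 by 1.89 ± 0.33 in whole cell (adjusted p = 0.00679), 1.70 ± 0.17 in RiboTag male (adjusted p = 8.86e-08) and 2.15 ± 0.14 in RiboTag female libraries (adjusted p = 1.71e-09, edgeR). In RiboTag female libraries it ranged from 0.616 to 0.905 CPM in D1 and from 2.86 to 3.92 CPM in D2. In the male set without the 6 libraries at odds with their sex label it was 2.30 ± 0.25 (adjusted p = 7.58e-06, edgeR). Its nuclear log2 fold change was 0.45 ± 0.26 (adjusted p = 0.242). Gm10945, which overlaps the start of Oprm1, had at most 1 count in any RiboTag library. The processed pseudogenes within 10 kb of a receptor (Gm15536, Gm13215 and Gm14489) held at most 37 counts in any library and failed the filters.

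Of the peptides that bind the receptors, Penk and Pdyn had larger log2 fold changes than any receptor in whole cell and RiboTag libraries. Penk, which encodes the enkephalins, was higher in D2 by 3.23 in whole cell (adjusted p = 4.07e-06), 2.31 in RiboTag male (adjusted p = 6.04e-11) and 2.61 in RiboTag female libraries (adjusted p = 3.37e-10). Pdyn, which encodes the dynorphins, was lower in D2 by -3.65, -2.61 and -2.96 on the log2 scale in the same order (adjusted p = 0.000211, 2.79e-15 and 1.67e-09, edgeR). The male values were 2.56 for Penk and -2.48 for Pdyn without the 6 libraries at odds with their sex label, both still past the threshold. Thus in whole cell and RiboTag libraries the delta receptor gene and Penk were both higher in D2, and Pdyn was higher in D1. The kappa receptor gene was called higher in D1 in the RiboTag male set only. That call was lost without the 6 libraries at odds with their sex label (above). In nuclear libraries Penk was lower in D2 (above) and Pdyn had a log2 fold change of -0.23 (adjusted p = 0.606). Pomc, the precursor of beta-endorphin, and Pnoc, that of nociceptin, failed the filters in RiboTag libraries and were not called in nuclear or whole cell libraries, where only the fit without the FPKM filter held them.

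A list of 37 genes of opioid signalling held peptide precursors and processing enzymes, G proteins, effectors and regulators, and enzymes of peptide breakdown. In whole cell libraries 1 of 25 tested was higher (Penk) and 2 lower (Pdyn and Gnai1) in D2, or 12.0% called beside 1.14% of all genes, with a median log2 fold change of -0.11 beside -0.09 over all genes. In RiboTag male libraries 4 of 25 were higher and 5 lower (36.0% called beside 9.30% of all genes, median -0.01, all genes 0.00), or 4 higher and 4 lower without the 6 libraries at odds with their sex label. In RiboTag female libraries 3 of 25 were higher and 4 lower (28.0% called beside 4.52%, median -0.04, all genes -0.00). Penk and Pdyn are counted in the whole cell and RiboTag shares, and both were also among the markers used to check the labelled cell types. Their calls therefore follow the cell type labels. In nuclear libraries 1 of 24 was higher (Cacna1a) and 3 lower, with Penk and Rgs4 among them (16.7% called beside 16.1%, median -0.21, all genes 0.03). Gnai1, an inhibitory G protein alpha subunit that opioid receptors use, was lower in D2 in whole cell (-0.79 ± 0.15, adjusted p = 0.0148), RiboTag male (-0.40 ± 0.05, adjusted p = 1.13e-06) and RiboTag female libraries (-0.51 ± 0.06, adjusted p = 4.11e-06). Gnao1, the Go alpha subunit, was higher in D2 in RiboTag male (0.21 ± 0.04, adjusted p = 0.00131) and female libraries (0.27 ± 0.04, adjusted p = 0.000633, edgeR).

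Gnb5, the partner subunit of the RGS proteins that switch G proteins off, was higher in D2 by 0.60 ± 0.05 in RiboTag male (adjusted p = 1.66e-08) and 0.45 ± 0.05 in female libraries (adjusted p = 5.32e-06). Kcnj9, a subunit of the potassium channels that opioid receptors open, was lower in D2 by -0.58 ± 0.09 (adjusted p = 3.59e-05) and -0.44 ± 0.10 (adjusted p = 0.0102) on the log2 scale. Cpe, an enzyme that trims peptide precursors, was lower in D2 in RiboTag male libraries (-0.23 ± 0.05, adjusted p = 0.00148) and stood at -0.14 ± 0.06 (adjusted p = 0.252) in the female set. In the male set without the 6 libraries, Gnai1 (-0.39), Gnao1 (0.26), Gnb5 (0.69), Kcnj9 (-0.60) and Cpe (-0.29) kept their direction and their call. Rgs4, which shortens Gi and Go signalling, was lower in D2 in nuclear libraries only among the calls (-2.24 ± 0.45, adjusted p = 0.00968, edgeR), and its difference between methods was not tested.

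Markers of other cell types differed between the RiboTag groups, and some of their summed levels differed between the nuclear groups. The summed level of 5 cholinergic interneuron markers was 0.708 to 1.65 CPM over the RiboTag D1 libraries and 2.83 to 8.17 CPM over the RiboTag D2 libraries, and in the fit without the FPKM filter Chat and Slc5a7, the enzyme and the transporter that define these cells, were higher in D2 by 2.42 and 2.81 in the male set and by 1.92 and 2.28 in the female set. Without the libraries at odds with their sex label the male values were 2.03 and 2.80. The summed level of 4 excitatory neuron markers was 12.5 to 41.6 CPM in D1 and 1.33 to 10.8 CPM in D2, and that of 6 GABA interneuron markers 18.8 to 33.4 CPM in D1 and 8.02 to 17.2 CPM in D2. None of these markers was at 0 in all libraries of a group. In nuclear libraries 4 sums were higher in D2 without overlap, those of the cholinergic (28.9 to 123 CPM in D1 and 138 to 255 CPM in D2), GABA interneuron (130 to 277 and 323 to 576 CPM), endothelial (28.1 to 266 and 321 to 611 CPM) and microglial markers (174 to 397 and 400 to 579 CPM). On this scale the median log2 fold change of all genes fitted without the FPKM filter was 1.26, and the share of all genes without overlap was not counted. Among the markers past the filter on these lists, none was called higher in D2. Sst was called lower, and the median of the 2 GABA interneuron markers was -1.39. The other 3 lists had 1 marker each past the filter. Their log2 fold changes were -0.17 (cholinergic), 0.34 (microglial) and 2.63 (endothelial), none of them called. The nuclear sums of the excitatory neuron, astrocyte and oligodendrocyte markers overlapped. The part of these cells in the receptor differences, the nuclear Oprm1 and Oprd1 values included, was not tested. In whole cell libraries the sums of the cholinergic, excitatory neuron and GABA interneuron markers overlapped between D1 and D2 (for the cholinergic markers 36.8 to 189 CPM in D1 and 27.2 to 136 CPM in D2). The part of these cells in the whole cell values was not tested either.

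Finally, the genes whose log2 CPM ran closest to each receptor were listed over all 22 RiboTag and all 14 whole cell libraries, as a description across libraries that hold both cell types. Over RiboTag libraries, the 3 genes closest to Oprd1 included Drd2 (Pearson r 0.97) and Gucy1a1 (0.96), and over whole cell libraries they were Grik3 (0.95), the Oprd1 neighbour Gm37711 (0.95) and Ccdc9b (0.93). Oprl1 ran closest to Faim2 (0.83), Limk1 (0.81) and Plcxd2 (0.78) over RiboTag libraries and to Lancl2 (0.95), Tars (0.95) and Pdyn (0.95) over whole cell libraries. For Oprk1 the closest were Ephb6 (0.78), Tmem191c (0.76) and Dgkz (0.75) over RiboTag libraries, and the closest 3 over whole cell libraries included Rps15 (0.95) and Gm14494 (0.94), and for Oprm1 Gpm6a (0.80), Nnat (0.78) and Cct6a (0.76) and then Sfi1 (0.93), Ctxn3 (0.93) and Chd1 (0.92). The libraries of a group share their cell type and the composition of their counts, so high values also follow from the D1 and D2 difference and from depth.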

How the data were processed

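RNA was sequenced from NAc D1- and D2-MSNs isolated by nuclear-FACS, whole cell-FACS or RiboTag, from Clontech SMARTer Stranded, ribosome-depleted, paired-end libraries. The authors aligned the reads to GRCm38 with HISAT2 2.0.5 and deposited raw fragment counts per gene from featureCounts, summed over the whole gene body without regard to strand, with a fragment over several genes counted for each and multimapping reads left out. A repeat column and a second lane, known as such by their column names only, were summed into their libraries, which made 47 libraries of 49 columns. Both are whole cell columns, and the paper counts more whole cell samples of each cell type than are used here. The summed columns may therefore be separate mice. Some whole cell D2, nuclear D2 and RiboTag female columns have numbers that do not follow the sample titles, and were tied to their group only. Gene body counts include introns, so nuclear RNA and stray genomic fragments add to long genes.

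Library sizes for the filters and for FPKM came from DESeq2 size factors. Genes were kept at over 1 CPM on these sizes in at least 2 libraries and, for nuclear and whole cell libraries, where 1 or more libraries reached an FPKM of 1 on the gene span and none was above 50000, or, for RiboTag, where 2 or more reached 0.1. Receptors that failed the FPKM filter were taken from the fit without it. D2 was compared with D1 within each method by edgeR 4.0.16 (R 4.3.3) with TMM scaling and the quasi-likelihood F test, which is two-sided, and Benjamini-Hochberg adjustment over all genes tested. A call was an adjusted p of at most 0.05. The SE was derived from the log2 fold change and its F statistic. CPM were given on the TMM scale of the genes past the FPKM filter, also where the log2 fold change came from the fit without it. For CPM and FPKM the RiboTag groups shared 1 scaling, while each RiboTag comparison of D2 with D1 was scaled on its own libraries. FPKM used the gene span or summed exons of the annotation, which matched 52489 (99.72%) of the genes. Count ratios used a pseudocount of 0.5. Likeness used log2 CPM of genes with a minimum count of 10. Python 3.11.15, scipy 1.17.1 and DESeq2 1.42.0 were also used. The test script was tested on simulated data.

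Named genes of the pathway list were the 4 peptide precursors and the 6 other listed genes with the smallest adjusted p. A few genes that these rules select are not reported here. The receptors and all lists were chosen with earlier results of these data known. Alternatives were other scalings, filters and tests, background subtraction, a replicate block and leaving out libraries. Replicates were separate mice per the labels. Counts below 3 per library were treated as the detection floor, and intervals of the fits cover the spread between libraries only.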

Additional observations from a re-analysis of the deposited data

Results flagged for a closer look

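Among 32 groups of libraries tested for a single value far from the others, 5 were marked, where chance alone marks about 1 in 20 groups. Oprd1 stood at 88.9 CPM in nuclear D2 replicate 5, against 64.5 to 66.8 CPM in the other D2 libraries. Oprd1 stood at 59.7 CPM in whole cell D1 replicate 8, against 11.1 to 34.0 CPM in the other D1 libraries, and this was the library in which the whole cell groups overlapped. Oprl1 stood at 22.1 CPM in nuclear D1 replicate 6, against 7.71 to 12.4 CPM in the others. Oprl1 stood at 3.06 CPM in RiboTag D2 female replicate 2, against 1.91 to 2.17 CPM in the others, and it was the highest Oprl1 level in that set. Oprm1 stood at 12.5 CPM in RiboTag D1 male replicate 1, against 16.0 to 18.2 CPM in the others.

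The D2 over D1 change of Oprd1 differed between methods by a test of the difference itself, by 1.89 on the log2 scale for whole cell minus nuclear and by 1.87 for RiboTag minus nuclear libraries (edgeR with TMM). Scaled within each method on the genes past its FPKM filter, the differences were 0.57 and 0.85 and did not pass the threshold.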

How the results depend on the processing

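Most values kept their direction and their side of the threshold. In nuclear libraries Oprm1 was 1.05 without the FPKM filter but scaled on the genes past it, and 0.27 with DESeq2 without that filter. Nuclear Oprd1 was 0.82 and 0.085 under the same settings and 0.061 with background subtracted. Nuclear Oprk1 was -1.25 without the FPKM filter and -1.23 with no filter, and Oprl1 -0.92 and -0.89, with 1 receptor called under either setting and with background subtracted without the filter. Whole cell Oprm1 was -0.20 when scaled on the genes past the filter, -0.068 with background subtracted and -0.000933 with Ipcef1 subtracted as well. Whole cell Oprd1 was 1.49 without the 3 D2 libraries whose 10 highest genes held over 20% of counts and 1.39 (adjusted p = 0.121) when scaled on the genes past the filter. Whole cell Oprl1 was -1.14 without the FPKM filter, -1.17 with no filter and -1.28 when scaled on the genes past it, none past the threshold, and 1 receptor was called without the FPKM filter, with no filter, with background subtracted without it and without those libraries.

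In RiboTag male libraries Oprm1 was 0.35 with Ipcef1 subtracted, with or without background. Without the libraries at odds with their sex label Oprk1 was -0.20 and Oprl1 -0.29 with 1 receptor called, and Oprl1 at -0.45 failed the added criteria of size and expression. In RiboTag female libraries Oprm1 was 0.015 with no filter, 0.037 with Ipcef1 subtracted and 0.036 with background subtracted as well. Without the libraries at odds with their label, the female minus male difference in D1 was 0.35 for Oprd1 and 0.075 for Oprl1, and the difference of the changes was -0.18 for Oprd1 and -0.10 for Oprk1. For whole cell minus nuclear, Oprm1 was -0.44 with DESeq2 and with its size factors, and Oprl1 -0.80 with DESeq2 and -1.04 with background subtracted, all 4 past the threshold. Scaled on the genes past each FPKM filter, whole cell minus nuclear was -1.25 for Oprm1 and -1.49 for Oprl1, which passed, and 0.57 for Oprd1 and -0.29 for Oprk1, which did not; RiboTag minus nuclear was -0.89 for Oprm1, which passed, and 0.85 for Oprd1, -0.32 for Oprk1 and -0.66 for Oprl1, which did not; RiboTag minus whole cell was 0.28 for Oprd1. For RiboTag minus nuclear, Oprm1 was -0.26 with DESeq2 and with its size factors, and Oprl1 was -0.12, -0.016 and -0.11 with DESeq2, its size factors and background subtracted. For RiboTag minus whole cell, Oprd1 was 0.080 with DESeq2, 0.082 with its size factors and 0.38 without the libraries at odds with their label, where Oprk1 was 0.075. The nuclear ratio of Oprm1 to Oprd1 was -0.13 with background subtracted, and the RiboTag male ratio of Oprk1 to Oprl1 was -0.00267 with a pseudocount of 5. Oprm1 ranked 1 per summed exons in all 8 groups. The causes were not tested.

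Leaving out each library in turn gave nuclear Oprm1 from -0.089 to 0.039, nuclear Oprk1 from -0.33 to 0.010, whole cell Oprd1 from 1.28 to 1.65 with 1 to 2 receptors called, RiboTag female Oprm1 from -0.065 to 0.093, the female minus male difference in D1 from -0.12 to 0.12 for Oprd1 and from -0.0066 to 0.14 for Oprk1, the RiboTag male ratio of Oprk1 to Oprl1 from -0.085 to 0.068 and the RiboTag female ratio of Oprm1 to Oprl1 from -0.0075 to 0.19. The nuclear Oprk1 range holds 10 fits, against 11 for nuclear Oprm1, since without D1 replicate 2 Oprk1 failed the FPKM filter. Without both that library and the filter, nuclear Oprk1 was -0.88 (adjusted p = 0.0188, edgeR). The number of all genes called ranged over the alternatives from 0 to 9400 in nuclear, 34 to 729 in whole cell, 298 to 1150 in RiboTag male and 206 to 693 in RiboTag female libraries.

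The same replicate numbers did not pair the samples: the correlation of same-numbered D1 and D2 libraries ranged from -0.289 to 0.216 in nuclear, -0.222 to 0.135 in whole cell, -0.024 to 0.167 in RiboTag male and -0.051 to 0.033 in RiboTag female libraries. With the number as a block, 0 genes were called in nuclear, 92 in whole cell, 574 in RiboTag male and 206 in RiboTag female libraries, Oprm1 and Oprl1 in RiboTag female libraries were 0.075 and 0.00143, and the female minus male difference of Oprd1 in D1 was 0.00442. Low counts limit Oprd1, Oprk1 and Oprl1 in RiboTag libraries, and shallow D1 libraries limit the nuclear comparison.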
